A study of Mus musculus with 108 samples.

Results

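Distal sites with a fragment listed as YFP-positive in the hemangioblast (HB) and at no other stage of the enhancer reporter screen numbered 1357 of 58916 sites (2.3%). They were chosen by the sorted fragment lists themselves. All distal intervals of the 95 sorted libraries were merged where they overlapped by at least 1 bp, and a site was kept when a YFP-positive fragment (Low, Medium, High or Medium/High gate) was listed in at least 2 HB replicates but never in ES, HE1, HE2 or HP. They are called HB-only sites here, but absence from a positive list does not show a lack of activity at that stage. In a Negative list of another stage, 80 of them (5.90%) were met. They made up 11.1% of the 12231 sites that were positive in 2 or more HB replicates, and the other 10874 of these were also positive at another stage. The same rule kept 1196 ES-only, 1882 HE1-only, 874 HE2-only and 768 HP-only sites.

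The screen asked which open chromatin fragments drive a reporter at each of 5 stages between embryonic stem cells and blood. Tn5-cut fragments of the 5 stages were cloned into the entry vector pDONR and then into the reporter vector pSKB, upstream of an HSP68 minimal promoter and Venus-YFP, and single copies were placed in the Hprt gene of HM-1, a mouse ES cell line. All sorted groups therefore came from HM-1 cells that carried the reporter at 1 locus, differentiated in serum: undifferentiated ES cells, HB (FLK1+ cells of embryoid bodies), and the KIT+ cells of a blast culture of HB. The latter were sorted as HE1, which had TIE2 without CD41, HE2, which had both, and HP, which had CD41 without TIE2. Each stage was sorted by YFP in 5 replicates, with a Negative and 3 positive gates (Low, Medium, High) in replicates 1 to 4 and a joint Medium/High gate in replicate 5, beside 5 pDONR, 5 pSKB and 3 HM-1 control libraries made from cells without a cassette. No source used here says that replicates were separate cultures, so a p-value measures only the spread between these samples. The lists hold DNA fragments and no RNA, so the label HB could not be held against marker genes.

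The hemangioblast is a FLK1-positive mesodermal cell that can give rise to endothelium and blood. T-box factors such as Brachyury and Eomes and the WNT, Nodal and BMP pathways are known to act in mesoderm, and ETS, GATA, SOX, AP-1 and RUNX factors are known for their part in endothelium and blood. A distal enhancer is a stretch of DNA, away from a transcription start, that raises the activity of a promoter when such factors bind it.

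Of the sites named below, 4, picked after their values were seen, are shown by sequence, because 2 of them lie near an endothelial and a blood gene and the others yielded an identical fragment in more than 1 HB replicate. Each is 1 recovered fragment, read from the mm10 reference (GRCm38.p6) on the plus strand, and capitals mark matches to the motifs described further below. These are TEAD and ETS at Aplnr, the E-box at Runx1, TCF/LEF at Nnt and ETS at Slc39a10.
Aplnr site, chr2:85140908-85141120: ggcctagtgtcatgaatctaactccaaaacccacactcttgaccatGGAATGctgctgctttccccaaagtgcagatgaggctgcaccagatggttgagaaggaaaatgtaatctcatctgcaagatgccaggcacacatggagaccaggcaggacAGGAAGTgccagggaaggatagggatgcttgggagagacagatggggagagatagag
Runx1 site, chr16:92778198-92778448: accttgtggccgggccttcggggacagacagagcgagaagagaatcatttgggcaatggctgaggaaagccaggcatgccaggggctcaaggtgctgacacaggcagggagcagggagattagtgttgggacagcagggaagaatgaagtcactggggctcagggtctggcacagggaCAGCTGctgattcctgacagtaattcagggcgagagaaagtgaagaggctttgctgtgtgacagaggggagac
Nnt site, chr13:119413220-119413438: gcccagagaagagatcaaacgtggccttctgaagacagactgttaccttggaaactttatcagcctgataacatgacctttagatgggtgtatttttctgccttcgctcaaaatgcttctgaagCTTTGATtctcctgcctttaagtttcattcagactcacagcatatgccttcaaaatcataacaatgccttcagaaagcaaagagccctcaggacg
Slc39a10 site, chr1:46894634-46894732: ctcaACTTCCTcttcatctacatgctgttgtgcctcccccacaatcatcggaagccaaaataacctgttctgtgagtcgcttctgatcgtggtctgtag

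The HB-only sites were narrow and rested on few fragments. Their median width was 271 bp (70 to 836 bp), against 626 bp for the sites positive in HB and at another stage and 297 bp for all sites. A narrow width was not particular to HB, since the median was 241 bp for ES-only and 231.5 bp for HP-only sites. The HB-only sites held 2947 distinct YFP-positive HB fragments with a median length of 196 bp (70 to 582 bp), and the median site held 2 (1 to 18). In 728 sites (53.6%) an identical fragment was listed in 2 or more HB replicates, while 629 sites had only different, overlapping fragments. The share with an identical fragment was 47.3% among sites positive in HB and at another stage. A total of 419 sites had 1 distinct fragment, so that their HB replicates listed the same piece of DNA. These values describe the rule's own lists and were not tested.

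HB replicates 1, 2 and 3 supplied most of the evidence. The number of HB-only sites positive in replicates 1 to 5 was 1104, 1075, 663, 94 and 39. Replicates 4 and 5 also had the shortest lists. An HB positive library listed between 414 and 17774 distal fragments in replicates 1 to 3, and between 300 and 917 in replicates 4 and 5. Relative to the list, the share was even, since HB-only sites made up 7.66%, 7.18%, 8.04%, 6.01% and 7.21% of the sites positive in replicates 1 to 5. Exactly 2 replicates were positive at 1110 sites, 3 at 233 and 4 at 14, and no site was positive in 5. The pair of replicates 1 and 2 alone accounted for 602 sites. Without replicate 1 the rule kept 660 sites and without replicate 2 it kept 605.

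**Figure D1:**
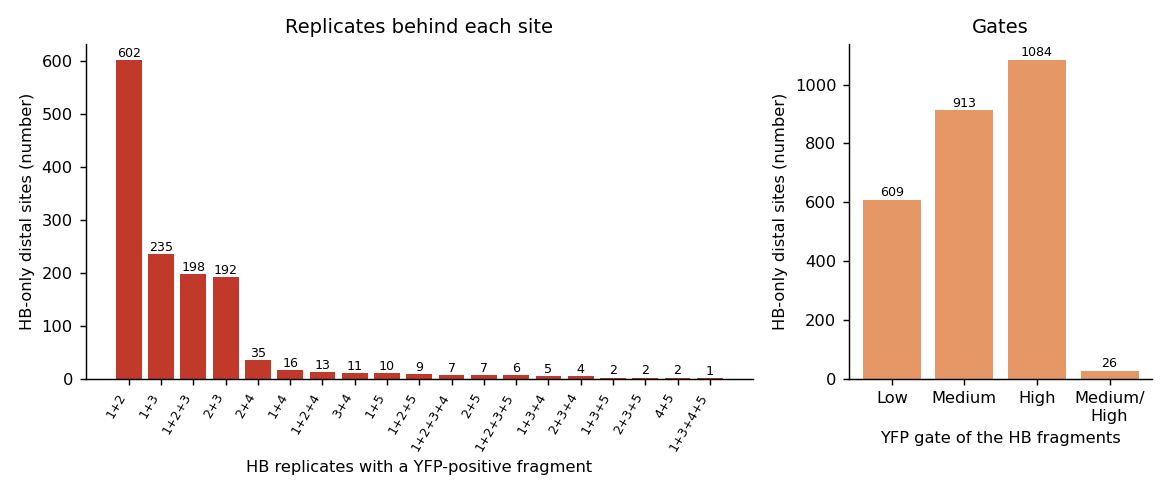
Left, number of HB-only distal sites (y axis) by the combination of HB replicates with a YFP-positive fragment (x axis). Right, number of HB-only sites with a fragment in each YFP gate over the 5 HB replicates. Replicates 1 and 2 alone account for 602 sites, and 1084 sites have a fragment in the High gate.

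Sites just inside and just outside the rule's limits overlapped in their number of fragments. Inside, the 1110 sites with exactly 2 positive HB replicates held a median of 2 distinct HB fragments, and 33.0% of them were also in an HB Negative list. Just outside, 4369 sites were positive in 1 HB replicate and no other stage, with a median of 1 fragment and 15.4% in an HB Negative list. A further 594 sites were positive in 2 or more HB replicates but also in a single list of another stage, with a median of 2 fragments and 34.3% in an HB Negative list. A Negative list of another stage held 34.5% of these 594 sites, 4.12% of the 4369 and 5.23% of the 1110 inside. The single positive list was from ES at 343 sites, HP at 115, HE1 at 74 and HE2 at 62. Positive promoter-list fragments of another stage overlapped 3 HB-only sites.

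The YFP gate was not used by the rule. Of the HB-only sites, 1084 had a fragment in the High gate, 913 in Medium, 609 in Low and 26 in the Medium/High gate of replicate 5, and 38 were seen in Low only. The share of HB-only fragment listings in Medium, High or Medium/High was 78.6%, 70.6%, 96.4%, 77.2% and 63.4% in replicates 1 to 5. It was 76.3%, 73.7%, 96.8%, 68.1% and 46.6% at the sites positive in 2 or more HB replicates and at another stage. The difference was positive in 3 of 5 replicates and averaged 4.93 percentage points ± 8.05 (SD, n = 5), which an exact two-sided sign-flip permutation test did not separate from 0 (p = 0.375, with 0.0625 the smallest p that 5 replicates allow). Gates were only partly repeatable for the same piece of DNA: of 778 fragments listed in a Low, Medium or High gate of 2 or more replicates, 444 (57.1%) shared a gate across those replicates.

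To ask whether the HB-only pattern held in lists that had not chosen the sites, each replicate was held out in turn and the rule was applied to the other 4. In replicate 1, 336 of 660 chosen sites (50.9%) were positive in the held-out HB list, where 161 would be met at the share of all sites. In replicate 2 there were 275 of 605 against 154, in replicate 3 there were 235 of 947 against 133, in replicate 4 there were 32 of 1304 against 34.6, and in replicate 5 there were 20 of 1338 against 12.3. HB therefore lay above the share of all sites in 4 of 5 replicates and slightly below it in replicate 4. At the other stages the chosen sites were met far less often. In replicate 2, for example, 60 were positive in ES (against 116), 15 were in HE1 (against 239), 10 were in HE2 (against 200) and 7 were in HP (against 127).

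On the log2 scale of observed over expected sites, with 0.5 added to both, HB exceeded the mean of the other stages by 3.08, 4.14, 4.37, 3.66 and 5.76 in replicates 1 to 5. The mean was 4.21 ± 1.00 (SD, n = 5), and HB was higher in 5 of 5 replicates (exact two-sided permutation test within replicates, p = 0.00032, the smallest that 3125 arrangements allow). Most of this difference was a low value at the other stages, for whose absence in the other 4 replicates the sites had been chosen. The p thus tells whether that choice repeated in the held-out lists, not whether activity in HB was high. The HB value itself averaged 0.66, and the values of ES, HP, HE1 and HE2 averaged -1.95, -3.68, -4.23 and -4.32. ES was thus the nearest stage to HB, 2.61 ± 1.67 (SD, n = 5) below it. Observed counts were 0 at ES, HE1, HE2 and HP in replicate 5, at HE2 and HP in replicate 4 and at HE1 in replicate 3. Log2 values there depend on the 0.5 added, and the 5.76 of replicate 5 rests on 20 HB sites. With 0.25 or 1 added instead, the mean excess was 4.58 or 3.81. The excess rested in part on the deepest lists: it was 2.34 without replicate 1 (exact permutation p = 0.0064) and 2.77 without replicate 2 (p = 0.0016), both past the 0.05 threshold.

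HB-only sites were recovered in the held-out HB list less often than sites active at several stages. Of sites positive in 2 or more of the other 4 HB replicates and at another stage, 84.0%, 83.6%, 49.8%, 9.97% and 3.59% were positive in held-out replicates 1 to 5. The corresponding shares of the chosen HB-only sites were 50.9%, 45.5%, 24.8%, 2.45% and 1.49%, lower in 5 of 5 replicates. The sites active at several stages also held more distinct HB fragments (a median of 4 against 2) and were wider, and the part of that in their recovery was not tested. Of the 660 sites chosen without replicate 1, 166 (25.2%) were positive in replicate 1 of another stage.

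The Negative lists, which the rule did not use, held the HB-only sites mostly at HB as well. In all, 486 sites (35.8%) were in an HB Negative list, against 60 in ES, 13 in HP, 5 in HE2 and 4 in HE1, and 828 were in no Negative list. The HB Negative lists of replicates 1 to 5 held 322, 243, 44, 10 and 10 HB-only sites, where 178, 160, 31.0, 9.77 and 9.65 would be met at the share of all sites. In contrast, 89.2% of the sites positive in HB and at another stage were in a Negative list of another stage, where 80 HB-only sites (5.90%) were. HB exceeded the mean of the other stages by 4.59 ± 1.23 on the same log2 scale (SD, n = 5), in 5 of 5 replicates (exact two-sided permutation p = 0.00032, the smallest possible). Several lists of the other stages in replicates 3 to 5 held 0 HB-only sites, where the log2 value depends on the 0.5 added. The rule had already removed sites with a positive fragment at the other stages, where Negative and positive cells share cultures. Low values in those Negative lists thus follow in part from the choice, and the p is no test of reporter activity in HB.

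Cells of the Negative gate came from the same cultures as the positive cells, and their lists shared fragments. With Negative fragments identical to a positive fragment of the same stage and replicate left out, the HB lists held 125, 140, 33, 4 and 4 HB-only sites in replicates 1 to 5, where 117, 138, 27.1, 5.76 and 7.51 would be met at the share of all sites. HB was thus slightly above that share in replicates 1 to 3 and below it in replicates 4 and 5, and still exceeded the other stages by 3.63, since those stayed low. This pattern was not particular to HB. ES-only sites were in an ES Negative list at 39.2% and in an HB Negative list at 2.84%, and 71.6% of HE1-only sites were in an HE1 Negative list. The sources used here do not say against which ATAC peaks a list was filtered. A filter on the peaks of the list's own stage and stage-specific reporter activity cannot be told apart in these lists.

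**Figure D2:**
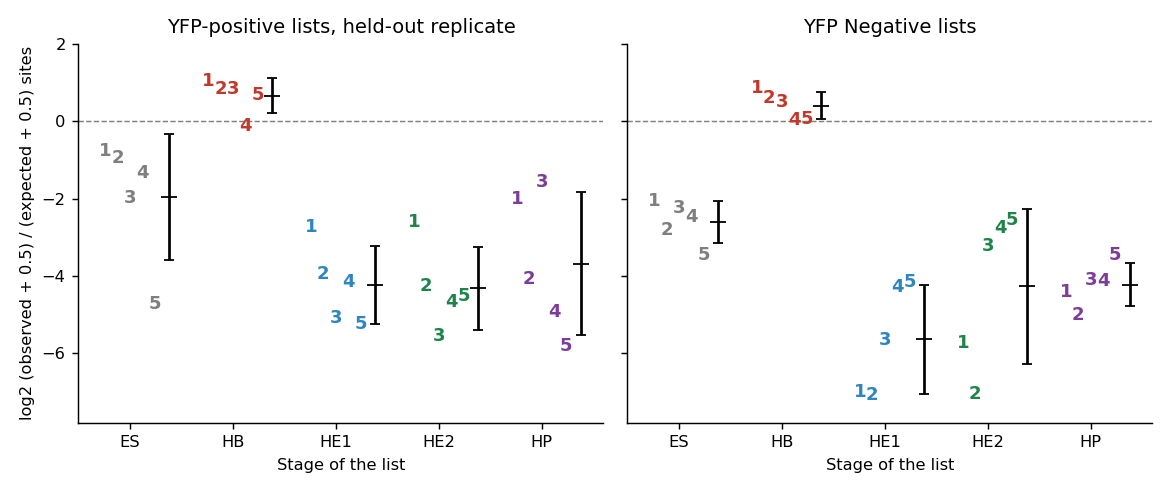
Log2 ratio of observed to expected HB-only sites with 0.5 added (y axis) by stage of the list (x axis). Left, positive lists of the held-out replicate for sites chosen from the other 4, and right, Negative lists for all 1357 sites. Numerals give the replicate, black bars the mean and SD over 5 replicates, and the dashed line the share of all sites. HB lies near or above 0 and every other value lies below it.

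Single sites could seldom be tested in the Negative lists. The limma fit took in 9068 sites that 4 or more of the 25 Negative libraries listed, and 1 HB-only site was among them. That site, in an intron of Ksr1 (chr11:79123471-79123922), was in the HB Negative lists of replicates 1, 2, 3 and 5 and in no other stage's. It passed the filter through HB lists alone, which fixed its direction, so no test of it is given. Across all 9068 sites 0 (0%) passed an adjusted p of 0.05 in limma, and 484 had an unadjusted p under 0.05.

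The plasmid libraries give the fragments before any reporter readout, and so measure how often a site was cut by Tn5 in the cells of each stage and cloned. The HB-only sites were most abundant in the HB library. Their median level in pDONR was 1.66 RPM (reads per 1000000 reads of the library) in HB and 1.12 RPM in ES, and between 0.36 and 0.46 RPM at the 3 later stages. These values are over the 1292 HB-only sites with 20 or more pDONR reads. HB was the highest of the 5 pDONR libraries at 48.1% of these and ES at 33.7%, whereas HB was highest at 17.8% and ES at 26.5% of the 53477 sites of the screen with that many reads. A high level in the library of the own stage was not particular to HB. It was met at 75.9% of ES-only, 49.3% of HE1-only, 25.6% of HE2-only and 38.8% of HP-only sites. With 1 library a stage there was no replicate and no test.

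At least a 2-fold higher level in HB than the mean of the other 4 pDONR libraries (0.5 RPM added) was met at 484 of the 1292 HB-only sites with 20 or more pDONR reads (37.5%). Among all 53477 sites with that many reads, 9.98% reached it. The sites positive in HB and at another stage stood at 10.4% and the ES-only sites at 6.59%. The median log2 ratio was 0.64 for HB-only sites, 0.00 for sites positive in HB and at another stage and -0.42 for all sites. In pSKB the ratio reached 2-fold at 399 of 1122 HB-only sites (35.6%), against 15.9% of all sites, and 274 of those that reached it in pDONR also did in pSKB. Even so, 331 HB-only sites were no higher in HB than the mean of the other 4 pDONR libraries, and the pDONR ratio ran from 0.144 to 24.4.

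**Figure D3:**
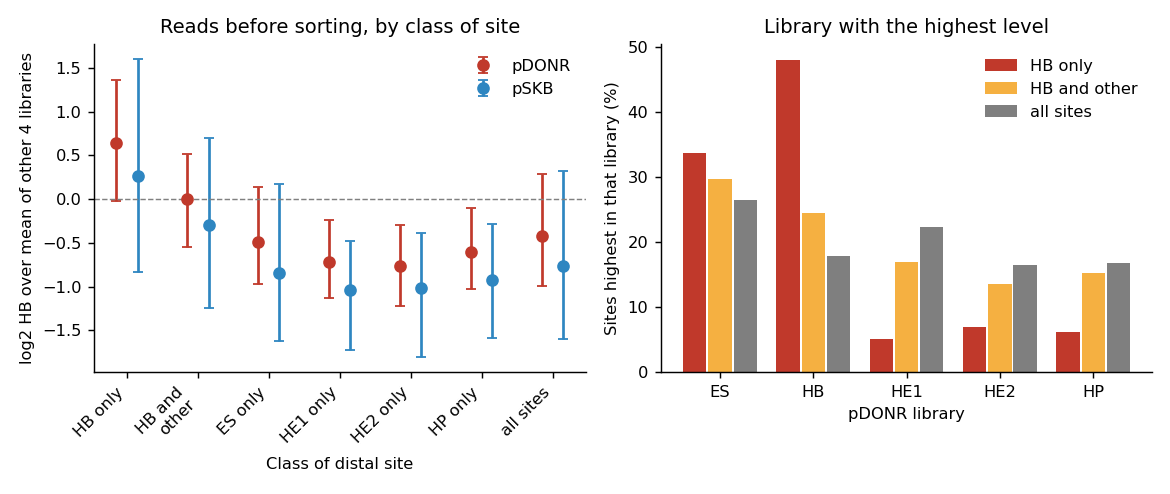
Left, median log2 ratio of HB to the mean of the other 4 libraries (points) with the quartiles (bars) for each class of distal site, in the pDONR and pSKB plasmid libraries. Right, percent of sites in each class that were highest in a given pDONR library. HB-only sites have the highest median ratio (0.64 in pDONR), and 48.1% of the 1292 with 20 or more pDONR reads are highest in the HB library. Each class is limited to sites with 20 or more reads in that vector.

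HB abundance in the plasmids was alike in better and less well supported HB-only sites. It reached 2-fold at 38% of the sites with 2 positive HB replicates and at 35.1% of those with 3 or 4, and at 38.3% of the sites in an HB Negative list and 38% of those in no Negative list. The fragments recovered from HB cells were also not mainly those of the HB plasmids. Of the 2947 positive HB fragments, 91.2% were identical to a fragment of some plasmid library, 27.2% to one of pDONR ES, 24.8% of HE2, 17.6% of HE1, 11.2% of HB and 3.70% of HP. This was not particular to HB-only sites. For HB fragments of sites positive in HB and at another stage, the pDONR shares were 16.3% for ES, 29.7% for HE2, 27.0% for HE1, 7.28% for HB and 7.17% for HP. In the HM-1 control, 19 of the 2947 fragments (0.645%) had an identical fragment.

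By position the HB-only sites were mostly intronic and intergenic DNA, like the rest of the screen. GENCODE annotation placed 628 in introns (46.3%), 550 between genes (40.5%), 122 on coding exons (8.99%) and 57 on other exons (4.20%). For all sites these shares were 48.3%, 39.8%, 6.86% and 5.07%. Coding exons held 14.0% of the sites positive in HB and at another stage. The median distance to the nearest protein-coding start was 22.0 kb, against 18.4 kb for sites positive in HB and at another stage and 26.3 kb for all sites. Although the lists were made as distal, 28 HB-only sites (2.06%, against 1.46% of all sites) had their centre within 1.5 kb of a GENCODE protein-coding start. Within 100 kb, 1012 genes were the nearest gene of at least 1 HB-only site, and 94 of them of 2 or more. Dagla had 4, of 14 sites of the screen nearest to it within that distance, and Tns3 had 4 of 25. The 11 genes with 3 were, with their number of all sites, Crispld2 (6), Frmd4b (22), Lhx1 (12), Lhx5 (7), Pax2 (17), Runx3 (21), Slc22a7 (7), Tbx3 (18), Tle3 (31), Wdr25 (13) and Zfp423 (34).

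Few HB-only sites lay at the listed genes of these lineages. Mesoderm and hemangioblast factors were the nearest gene within 100 kb of 10 HB-only sites (0.737%, against 0.453% of all sites), at 8 of 38 genes, among them Eomes, Foxf1, Foxh1, Lef1, Snai1, Tbx3 and Zeb2. Endothelial genes had 7 HB-only sites (0.516% against 0.433%), at Aplnr, Cdh5, Dll4, Egfl7, Notch1 and Vwf. Genes of the BMP, WNT, Nodal, FGF and VEGF pathways had 10 (0.737% against 0.659%), among them Axin2, Sp5, Lef1 and Nodal. Pluripotency factors had 5 (0.368% against 0.212%) at Esrrb, Sall4 and Tbx3, and blood genes had 3 (0.221% against 0.333%) at Irf8, Runx1 and Zfpm1. Among sites positive in HB and at another stage, the mesoderm, endothelial and pathway shares were 0.579%, 0.524% and 0.736%. Pluripotency factors and blood genes stood at 0.248% and 0.441% in that class. All these shares are descriptions, of small counts for HB-only sites, and were not tested.

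Near mesodermal genes, a site 8.7 kb from Eomes (chr9:118486724-118487310), a T-box factor of mesendoderm, had 2 fragments in replicate 1 and 2 in replicate 2, with an identical fragment in both, and 22.3 RPM in pDONR HB (20.7 to 24.0) against 1.97 to 6.02 at the other stages. The HB library was thus well above the others at this site, and in pSKB it stood at 28.6 RPM against 1.93 to 12.9.

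Other sites near mesodermal or WNT genes had smaller HB values in the plasmids. The Foxh1 site (chr15:76667398-76668147), on a coding exon of Kifc2 and 2.2 kb from the start of this Nodal pathway factor, was positive in HB replicates 2, 3 and 5 and stood at 13.9 RPM in pDONR HB, against 2.26 to 3.16 elsewhere. At Lef1 (chr3:131106133-131106525), a WNT effector, the HB value was 8.27 against 1.59 to 3.43, and at Sp5 (chr2:70473288-70473534), a WNT target, 6.58 against 0.232 to 2.05. The Lef1 site was also in the HB Negative list of replicate 2. The Tbx3 site (chr5:119660562-119660848) was positive in replicates 1, 2 and 3 with 4 distinct fragments, but ES was the highest pDONR library at 2.94 RPM against 1.56 in HB. In pSKB the order changed at several of these sites: HB was highest at Tbx3 (6.01 RPM, against 1.71 in ES and at most 0.429 later), HB and ES were close at Foxh1 (9.89 and 9.58), ES was highest at Lef1 (6.76 against 5.19 in HB) and HP at Sp5 (12.3 against 3.06 in HB). The order of the libraries thus differed between sites that passed the same rule and between the vectors.

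Near endothelial and blood genes the highest plasmid library also varied. The Aplnr site (chr2:85140875-85141240), 4.8 kb from the apelin receptor gene, had 1 fragment in each of HB replicates 1, 2 and 3 and was in the HB Negative lists of the same replicates. It had 2.01 RPM in pDONR HB (1.55 to 2.57), and 1.89, 1.74 and 1.18 in HE1, HE2 and HP, with 0 reads in ES, which allows up to 0.134 RPM. HB, HE1 and HE2 were within each other's counting intervals, and in pSKB HE2 was highest (5.06 against 0.388 in HB). The Dll4 site (chr2:119322205-119322920), 3.2 kb from this Notch ligand gene, had 3, 1 and 1 fragments in replicates 1, 2 and 3 and was highest in ES in both vectors, at 8.83 against 4.56 RPM in HB in pDONR and 11.9 against 2.13 in pSKB. The Runx1 site (chr16:92778145-92778448), in an intron of this blood regulator, had 2 fragments in replicate 1 and 1 in replicate 2, and 2.43 RPM in pDONR HB (1.91 to 3.04) against 0.544 to 1.20. It was also in the HB Negative list of replicate 1. The Zfpm1 site (chr8:122296379-122296879), in an intron of the GATA cofactor FOG1, was positive in replicates 1, 2 and 3 and stood at 9.99 in HB against 1.36 to 3.97. HB was highest in pSKB too at both of these sites, at 4.17 RPM for Runx1 and 7.22 for Zfpm1.

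The largest pDONR ratios were at Irx3, Dnah17, Lhx1, Pla2g6 and Wdsub1. The Irx3 site (chr8:91765340-91765719), 36.4 kb from this homeobox gene, had 15.2 RPM in HB (13.9 to 16.6) and 0.058 to 0.301 elsewhere, a 24.4-fold ratio with 0.5 added. Its single fragment was listed as positive in HB replicates 1 and 2, both times in the Low gate, and the site was also in the HB Negative list of replicate 1. The Lhx1 site (chr11:84592797-84593330), 67.5 kb from a LIM homeobox gene of early mesoderm, had 27.6 in HB (25.7 to 29.4) against 0.752 to 1.72, with 2 fragments in replicate 2 and 1 in replicate 3. It was also in the HB and HP Negative lists of replicate 1. High plasmid abundance thus came with a Low gate at Irx3 and with Medium and High gates at Lhx1.

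**Figure D4:**
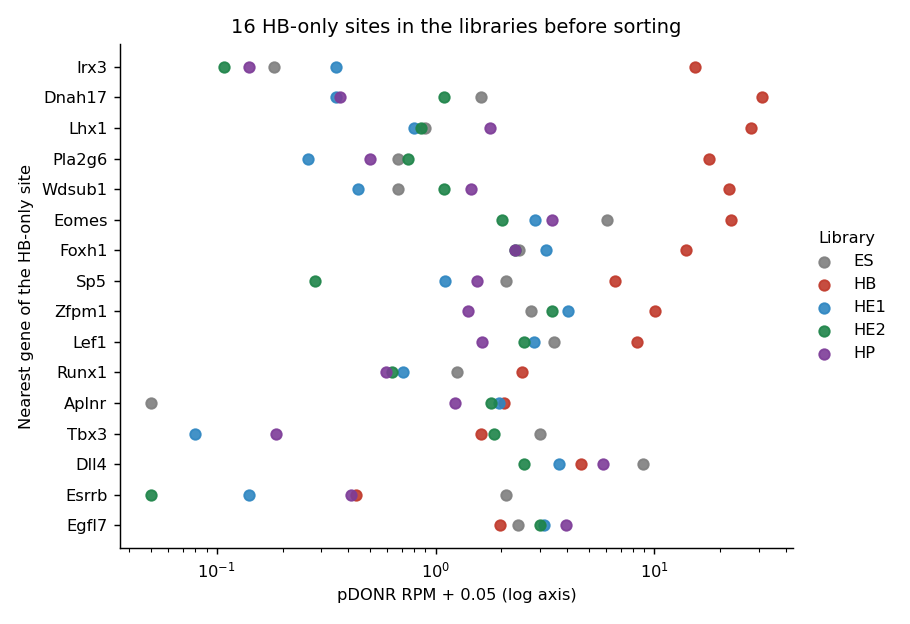
RPM in the 5 pDONR libraries, with 0.05 added and on a log axis, for 16 HB-only sites named by their nearest gene and ordered by the ratio of HB to the mean of the other libraries. HB is the highest library from Runx1 (2.43 RPM) up to Irx3, and at Aplnr, and ES or HP is highest at Tbx3, Dll4, Esrrb and Egfl7.

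Of the 10 best supported sites, all positive in 4 HB replicates, 0 had a gene of these lists as the nearest gene, and HB was the highest pDONR library at 2. A site at Foxn3 (chr12:99392827-99393552), a forkhead gene, had 8, 8, 5 and 1 distinct fragments in replicates 1 to 4, the most of any HB-only site, and an identical fragment in all 4. It overlaps an exon 0.1 kb from a GENCODE protein-coding start and was also in the HB Negative list of replicate 1. Its pDONR level was even across stages (16.2 in HB, 12.9 to 21.2 elsewhere), while pSKB stood at 35.6 in HB against 11.6 to 16.7. A site 27.2 kb from Socs3 (chr11:117941808-117942264), a feedback inhibitor of cytokine signalling, had 2, 2 and 1 fragments in replicates 1 to 3 and 1 in replicate 5, none identical between replicates. An intergenic site near Slc39a10 (chr1:46894473-46894823), a zinc transporter gene, had 5 positive gate listings in replicates 1 to 4, all of them High. It was also in the HB Negative list of replicate 3. ES was highest there in pDONR at 2.05 RPM against 0.638 in HB, and in pSKB at 21.9 against 0.0485. A site 4.3 kb from Nnt (chr13:119413209-119413438), a mitochondrial transhydrogenase gene, had 1 fragment in each of replicates 1 to 4 and was at 1.98 in HB and 1.74 in ES, against 0 to 0.24 at the later stages, and in pSKB at 0.582 in HB and 7.09 in ES.

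The sites most often in Negative lists were the Ksr1 site (4 lists), an exonic site near Fam124b (chr1:80225085-80225241) and one near 9130409I23Rik (chr1:181061919-181062194), with 3 lists each, all of HB. The Ksr1 site was positive in HB replicates 4 and 5 and not in the deeper replicates 1 to 3, where it was in the Negative lists instead. At these sites YFP-positive and YFP-negative HB cells carried fragments of the same region.

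In base composition the HB-only sites were close to the multi-stage sites in GC content but held fewer CpG. The 300 bp window at the centre of 1356 sites with chromosome sequence had a median GC content of 53.3% (quartiles 49.7% and 57.0%), against 54.0% for sites positive in HB and at another stage, 52.0% for ES-only, 49.0% for HE1-only and 50.7% for all sites. A window held 5.70 CpG on average, against 8.32 in the multi-stage, 5.91 in the ES-only and 5.15 in all sites. Soft-masked repeats covered 50% or more of the window at 42 HB-only sites (3.10%, against 4.39% of all sites).

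Of 13 motifs searched on both strands of these windows, T-box and TCF/LEF letters were at the top of the order. AGGTGTGA (T-box) was in 2.65% of HB-only windows and 1.44% of all 58911 windows, and in no more than 1.59% of windows of the other classes. ATCAAAG (TCF/LEF) was in 7.23% against 4.57%, with at most 4.43% in the other classes. Together these marked 133 HB-only sites. GGGCGGG (SP/KLF) was also over 1.5 times as frequent as in all sites (9.96% against 6.46%), but more so at sites positive in HB and at another stage (13.1%). CAGGGGGC (CTCF) was at 4.42% against 3.47%, the octamer ATGCAAAT at 1.99% against 1.63% and the E-box CAGCTG at 25.4% against 22.8%.

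Letters of factors known from endothelium and blood were at or below the share of all sites. TGANTCA (AP-1) was in 9.44% of HB-only windows against 16.1% of all and 26.7% of HE1-only windows. AGGAAGT (ETS) was at 9.66% against 15.9%, with 20.2% in HE1-only and 23.6% in HE2-only windows. ACAATGG (SOX) was at 3.17% against 5.74%, TGTTTAC (FOX) at 2.95% against 4.14%, TGTGGT (RUNX) at 22.2% against 25.5%, CATTCC (TEAD) at 18% against 19.6% and AGATAA, read by factors of the GATA family, at 16.7% against 18.2%. The latter letters were more frequent than in ES-only windows (8.61%). Low shares of AP-1, ETS, SOX and FOX letters were not particular to HB-only sites. In sites positive in HB and at another stage they were 11.5%, 11.7%, 4.30% and 3.22%. RUNX, TEAD and GATA letters were slightly less frequent in that class (21.3%, 17.1% and 14.0%) than in HB-only windows. No HB-only window had overlapping T-box and TCF/LEF matches. Matches of different motifs overlapped at few sites, with AP-1 and the E-box the most frequent pair (4 sites).

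T-box and TCF/LEF letters were above the share of all windows in each of 4 bins of GC content, whereas GATA, TEAD, FOX, SP/KLF, CTCF, octamer and E-box letters changed side between bins. In the bin lowest in GC, which held 125 HB-only sites, TCF/LEF letters were in 16% of them against 5.65% of all windows, and GATA letters in 36.0% against 27.9%. In the highest bin, with 589 HB-only sites, the shares were 5.60% against 3.10% for TCF/LEF and 8.66% against 9.01% for GATA. GATA letters were above all windows in both middle bins too (23.0% against 21.1% and 18.1% against 15.9%). SP/KLF letters were at 0.8% against 1.04% in the lowest bin and 18.5% against 16.4% in the highest, and E-box letters were above all windows in the highest bin alone (32.8% against 29.7%). ETS letters were less frequent than in all windows in each bin. These shares are descriptions of letters in windows, not of bound factors, and none was tested.

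**Figure D5:**
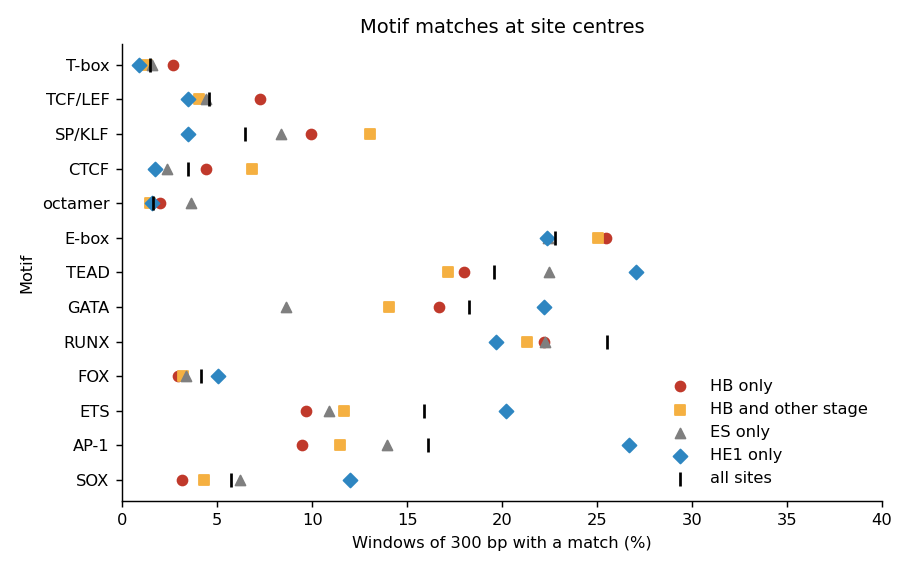
Percent of 300 bp windows at site centres with at least 1 match on either strand (x axis) for 13 motifs (y axis), ordered by the ratio of HB-only to all sites. Symbols give the class of site. HB-only windows have the highest shares of these classes for T-box (2.65%) and TCF/LEF (7.23%), and the lowest for AP-1, ETS, FOX and SOX.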

How the data were processed

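The sites, gene lists and motifs were chosen with earlier results of these data known. According to the methods, the authors trimmed reads with TrimGalore, aligned them to mm10 with Bowtie2 (v2.3.5.1), filtered them with SAMtools, made 1 interval per pair with bedtools, removed duplicates and HM-1 control fragments, and kept fragments of the plasmid libraries that lay in ATAC peaks. What the authors deposited for sorted cells is coordinates alone, without read counts, so fragments weigh the same at any depth and list length sets what can be detected. For plasmids and controls the deposited column is a raw count of reads per fragment (17249152 to 33263313 reads per pDONR library). PCR reads carry no molecular identifiers, so intervals (95%, exact binomial) and the limit for 0 reads (3 reads) cover counting error only.

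Stage, gate and replicate came from the labels. Sorted starts were moved by 1 bp, after which 83.4% of 20000 sampled distal fragments matched a plasmid fragment (1.96% as deposited). The fragments still unmatched, and those matching the control, were kept as listed. Expected sites were the number of chosen sites times the share of all sites in a list. Permutation tests placed the HB name on each stage within each replicate. limma (version 3.58.1, R 4.3.3) used lmFit and eBayes with trend on log2 fragments per 10000 with 1 added. Other steps used Python 3.11.15, NumPy 2.4.6 and pandas 2.3.3. The held-out permutation test and limma were also run on simulated data, and the Negative and gate tests were not. Gene annotation came from GENCODE and sequences from RefSeq GRCm38.p6. Sites were named as the 10 with most positive HB replicates and then fragments, the 12 so ranked near listed genes, the 5 with the largest pDONR ratio and the 3 in most Negative libraries, and values are given for a part of them. The site of 1 named gene is not reported here. Alternatives covered replicates left out, pseudocounts, 500 bp bins, the replicate block, filters, folds and read minimums.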

Additional observations from a re-analysis of the deposited data

How the results depend on the processing

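The held-out and Negative excess of HB, to which the choice of sites contributed, kept direction and significance in the 22 alternatives run on them. Held-out values ran from 2.34 to 4.37 with a replicate left out, the lowest without replicates 1 (2.34) and 2 (2.77), and from 3.65 to 4.58 otherwise. Negative values ran from 4.22 to 4.88 with a replicate left out and from 3.56 to 5.01 otherwise, the 3.56 being for sites chosen from the other 4 replicates, an alternative chosen after seeing the data. The gate difference could not pass with sign flips of 5 or fewer replicates, so its p says nothing of stability, and its value stayed above 0 (1.97 to 6.94 points with a replicate left out, the lowest without replicate 5, and 0.659 to 6.69 otherwise). The count of 484 sites past 2-fold in pDONR became 145 at 4-fold (11.2%, against 2.08% of all sites), since fewer sites pass a higher fold, and ran from 376 to 610 in the other alternatives. The limma calls numbered 4 of 9068 sites with 0.25 added, and ran from 0 to 2 with a replicate left out (2 without replicate 5). The cause was not tested.

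Same-numbered Negative libraries did not all deviate together (the lowest correlation of a replicate's pairs ran from 9.49e-08 to 0.117), so the numbers are not shown to pair the samples, although the permutation tests used them as blocks. A replicate block in limma gave 0 calls, as without it, with 553 sites at an unadjusted p under 0.05. With no replicate block the held-out and Negative excess had an exact permutation p of 1.88e-05, and the gate difference, with that setting added after seeing the data, one of 0.651.

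The number of HB-only sites depends on the rule: 247 with 3 HB replicates required, 137 with 4 distinct fragments, 871 without sites in an HB Negative list, 1521 in 500 bp bins, and 605 to 1338 with a replicate left out. Replicates 4 and 5, with short lists, limit what recurrence can show.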
